A study of Danio rerio with 2 samples.

Results

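Neural crest cells arise at the border of the neural plate, leave the neural tube after an epithelial to mesenchymal transition, and form pigment cells, peripheral neurons and glia, and much of the skeleton of the head. A set of transcription factors called specifiers marks the border and premigratory crest: Tfap2 factors act early, SoxE factors (Sox9 and Sox10) maintain the crest and direct glial, pigment and cartilage fates, and Snail and Twist factors repress epithelial genes. The accessible chromatin of 10 such genes is described here: tfap2a, tfap2c, sox9a, sox9b, sox10, snai1a, snai1b, snai2, twist1a and twist1b. In zebrafish the a and b forms of sox9, snai1 and twist1 are duplicates of a single ancestral gene.

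ATAC-seq, in which the Tn5 transposase cuts open DNA, was made from whole embryos at the 1-somite stage after removal of chorion and yolk, 1 embryo per library. One library came from an npas4l mutant, homozygous for the allele bns297, and 1 from a wild type (WT) embryo. Npas4l is a bHLH-PAS transcription factor that starts endothelial and blood specification. The growth protocol given with both libraries names AB wild-type embryos, so the genetic background of the mutant embryo is not stated further, and both genotypes rest on 1 embryo.

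A region was a member if the table assigned it to 1 of the 10 genes, or if it had no assigned gene, lay within 50 kb of that gene's transcription start site (TSS) and was nearer to it than to any other TSS in the table. This gave 46 of 35854 regions, of which 15 were assigned and 31 were not, and all 10 genes had at least 1. The gene with the most regions was snai1b, with 10. sox9b had 8, tfap2a and sox10 had 6 each, snai2 had 5, twist1a had 4, tfap2c had 3 and sox9a had 2, while snai1a and twist1b had 1 each. Because the nearest TSS is taken only among the 14589 genes with an assigned region, an unassigned region need not act on the gene it is listed under. Just outside the 50 kb limit lay a region 52.5 kb upstream of sox9a (40 normalised reads in the mutant, 56 in WT) and 1 located 56.8 kb downstream of tfap2a (38 in the mutant, 69 in WT). Just inside it lay the regions 48.3 kb downstream of tfap2c and 48.5 kb downstream of tfap2a, which are described with those genes.

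The regions held 7066666 reads in the mutant and 7853828 in the WT library, as recovered from the normalised values. Of lineage marker genes, 4 of 4 ectodermal and 2 of 3 endodermal ones had an assigned region, as did 3 of 5 names in the mesoderm list (tbx16, msgn1 and myf5, but neither ta nor tbxta, an older and a newer name for 1 gene), while of 5 larval or adult tissue genes hbaa1 alone had 1. Each genotype had a single library, so the comparison between them carries no test and no p-value. The log2 ratio is mutant over WT with a pseudocount of 1, so it understates differences of low regions. Parentheses give a 95% interval, computed without a pseudocount by the exact Clopper-Pearson method from how the recovered reads divide between libraries. It covers counting error only. Reads carried no stated molecular identifiers and may include PCR copies. In a whole embryo, values at these genes cannot be ascribed to neural crest cells or to any other cell type. A change in the share of a cell type, crest included, and a change in accessibility per cell cannot be told apart. Positions are on GRCz10, as the authors' table gives them.

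By median log2 ratio, the specifier genes as a group lay close to all regions in range of a gene. The 2 sets differ in make-up, with 17.4% of members within 1 kb of a TSS, against 45.2% of regions in range. Of 46 regions, 26 lay above 0 and 20 below, with a median log2 ratio of 0.07 (quartiles −0.31 and 0.32), against 0.02 (quartiles −0.28 and 0.30) over the 28838 regions in range of any gene. The 2-fold rule was passed upward by 2 regions, or 4.35%, and downward by 0. It was passed upward by 3.78% and downward by 4.03% of all regions, and by 3.44% and 3.43% of those in range of a gene, of which 51.2% lay above 0. The counting interval lay above 0 for 8 members (17.4%) and below 0 for 11 (23.9%). With a minimum mean of 50 it lay above 0 for 4 of 40 members and below 0 for 11. Among regions in range of a gene the shares were 20.9% above and 16.9% below, so an interval that leaves out 0 is common in this pair of libraries.

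**Figure D1:**
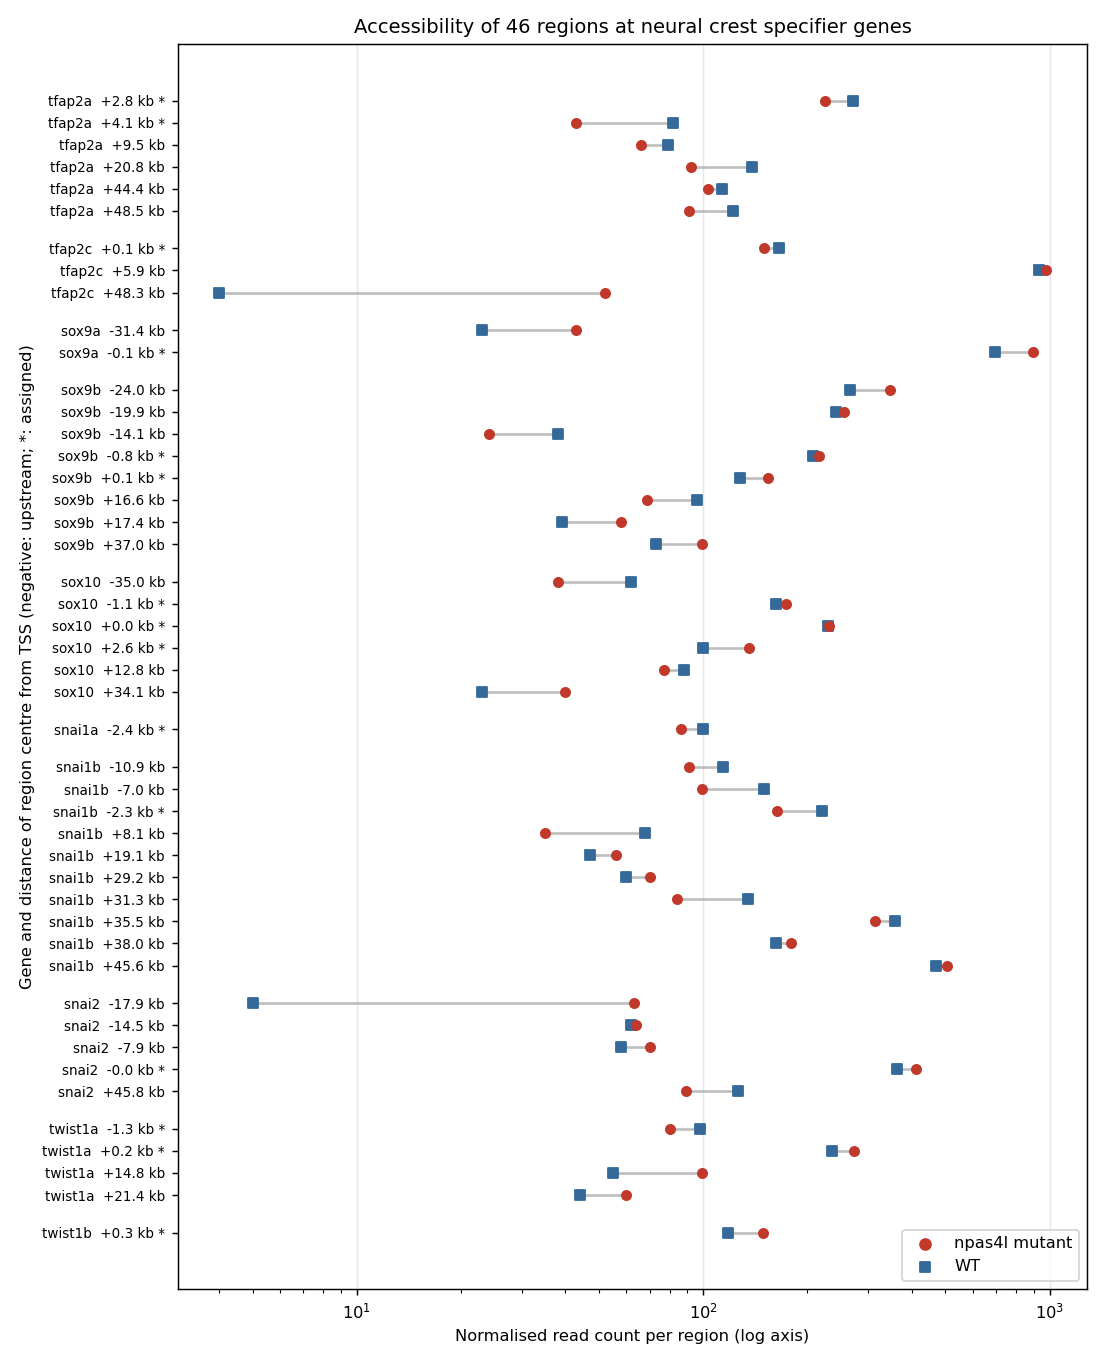
Normalised read count (log axis) in the npas4l mutant (circles) and the WT (squares) library for each of the 46 regions, by gene and by distance of the region's centre from the TSS; an asterisk marks the 15 assigned regions. The mutant circle lies left of the WT square in all 6 tfap2a regions and right of it in both sox9a regions, and 2 regions, at tfap2c and snai2, had WT values of 4 and 5.

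Regions within 1 kb of the TSS lay mostly above 0, as promoters did throughout the table. The 8 such regions belonged to 7 genes and 7 of them lay above 0, with a median of 0.20. Over all 13036 regions within 1 kb of a TSS, 62.9% lay above 0 and the median was 0.11. A scaling on the 10% of regions with the highest mean left 5 of the 8 above 0, against 54.1% of all promoters. None of the 8 reached 2-fold in either direction (2.68% higher and 1.02% lower among all promoters), and the interval left out 0 for 1 of them, at sox9a (27.2% above and 9.67% below 0 among all promoters). The other 38 regions, farther from the TSS, split evenly with 19 above and 19 below 0 and had a median of −0.04. Of these, 7 had an interval above 0 and 11 below it, against 15.6% and 22.8% of all such regions. The 15802 regions of that kind had 41.6% above 0 and a median of −0.10, with 4.07% at least 2-fold higher and 5.42% at least 2-fold lower.

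The Tfap2 genes encode AP-2 factors that open the neural plate border to crest and placode fates. tfap2a (ENSDARG00000059279, chromosome 24) had lower values in the mutant library at every one of its regions. Within the gene, 8588998 to 8589615 had 225 normalised reads in the mutant and 270 in WT, a log2 ratio of −0.26 (−0.53 to −0.01). The intragenic region at 8587920 to 8588172 held 43 in the mutant and 82 in WT (−0.92, −1.52 to −0.38). The region 9.50 kb downstream of the TSS, also within the gene body but not assigned, held 66 in the mutant and 79 in WT (−0.26, −0.75 to 0.23). Each of these 3 was lower in the mutant, and the one with the fewest reads had the largest difference.

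Beyond the tfap2a gene body, the region at 8571147 to 8571477, 20.8 kb downstream, had 92 normalised reads in the mutant embryo and 138 in WT (−0.58, −0.99 to −0.20). Those 44.4 kb and 48.5 kb downstream held 103 and 91 in the mutant, against 113 and 122 in WT, with log2 ratios of −0.13 (−0.53 to 0.27) and −0.42 (−0.84 to −0.03). Thus 6 of 6 tfap2a regions lay below 0, and 4 had intervals below 0. They also lay below 0 under the 3 other scalings. Scaling to the same total and on the highest 10% lowers every log2 ratio, by 0.03 and 0.07, and could not have changed this. Of the 232 genes with 6 regions, 9.05% had all of them below 0. That share counts promoter regions too, of which 62.9% lay above 0, while all 6 tfap2a regions lay beyond 1 kb. Of all regions beyond 1 kb, 41.6% lay above 0 and 22.8% had an interval below 0. Summed over its regions tfap2a had 620 normalised reads in the mutant embryo and 804 in WT, a log2 ratio of −0.37 (−0.53 to −0.22). Pooled reads narrow the interval of a sum. How often such sums leave out 0 over all genes was not counted, for this gene or those below. The table assigned no region within 1 kb of the tfap2a TSS, so its promoter was not analysed here.

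tfap2c (ENSDARG00000040606, chromosome 6), which overlaps tfap2a in function at the border, did not share this pattern. Its promoter at 56157427 to 56158066 had 150 normalised reads in the mutant and 165 in WT (−0.14, −0.47 to 0.19). The intragenic region at 56163195 to 56163863, 5.87 kb from the TSS, had 977 in the mutant and 931 in WT (0.07, −0.06 to 0.20). Per length this region was the most accessible of all 46, at a mean of 1430 normalised reads per kb. Neither of these regions differed beyond counting error, and their sum was 1127 in the mutant and 1096 in WT (0.04, −0.08 to 0.16).

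The third tfap2c region, 48.3 kb downstream at 56205852 to 56206144, had 52 normalised reads in the mutant embryo and 4 in WT, a log2 ratio of 3.41 (2.35 to 5.73), 10.6-fold on the scale of values + 1. A region 17.9 kb upstream of snai2, at 35482948 to 35483304 on chromosome 24, held 63 in the mutant and 5 in WT (3.42, 2.44 to 5.42), 10.7-fold on the same scale. These were the only members past 2-fold, both were nearly absent from the WT library, and neither was assigned to a gene by the table. Their means, 28 at tfap2c and 34 at snai2, came almost wholly from the mutant library. The counting intervals do not allow for any selection of regions by a high value in either library. With a pseudocount of 10 the log2 ratios of these regions were 2.15 at tfap2c and 2.28 at snai2. Values of 5 or less in WT with 50 or more in the mutant occurred in 0.226% of all regions, and the converse in 0.117%. The limits of 5 and 50 lie close to the values of these 2 regions, so these shares do not measure how rare they are. Of the 6397 regions in range with a mean under 50, 560 were at least 2-fold higher. Neighbouring snai2 regions 14.5 kb and 7.93 kb upstream, with 64 and 70 in the mutant against 62 and 58 in WT, had log2 ratios of 0.05 (−0.48 to 0.57) and 0.27 (−0.25 to 0.80).

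**Figure D2:**
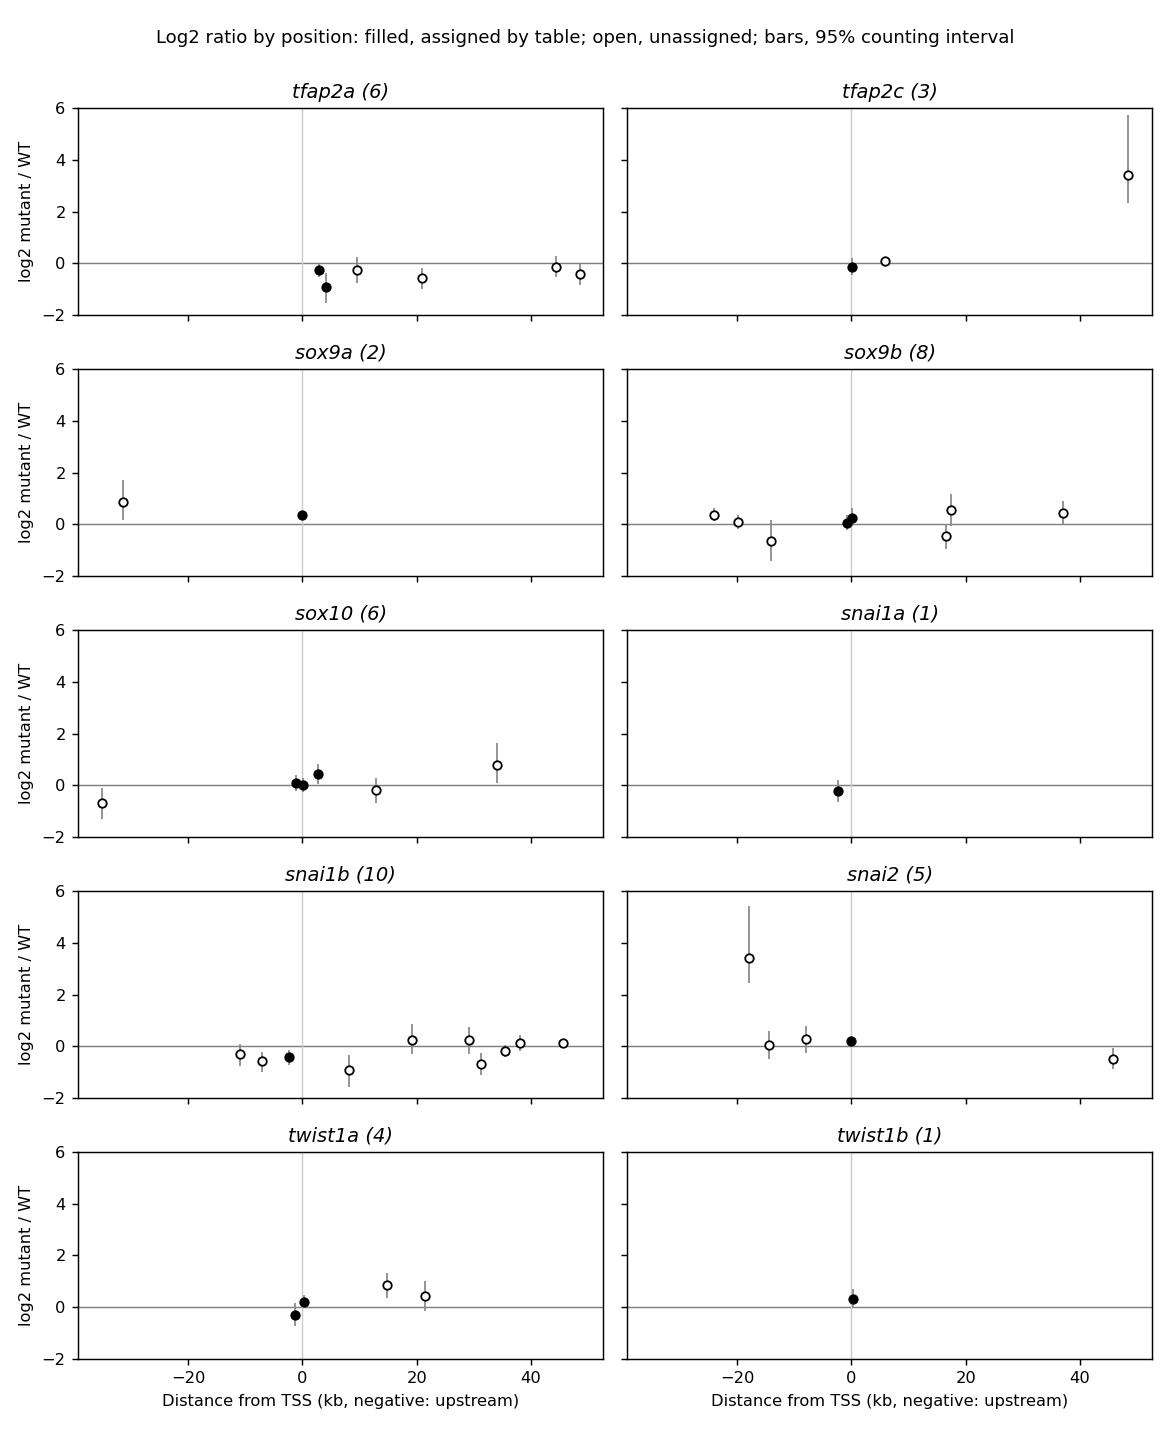
Log2 ratio of mutant over WT against distance from the TSS (kb, negative upstream) for each gene, with the number of regions in its title; filled points are regions assigned by the table, open points are unassigned ones, and bars are 95% counting intervals. The 2 points at 3.41 and 3.42 stand far above the others, which lie between −0.94 and 0.87.

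SoxE genes encode HMG-box factors, of which Sox10 is needed for pigment cells and peripheral glia and Sox9 for cartilage. sox9a (ENSDARG00000003293, chromosome 12) was higher in the mutant library at both regions. The region over its TSS, 1930722 to 1931881, had 896 normalised reads in the mutant embryo and 696 in WT, a log2 ratio of 0.36 (0.22 to 0.51). The region 31.4 kb upstream held 43 in the mutant and 23 in WT (0.87, 0.15 to 1.71). By mean normalised read count, not corrected for width, the first of these stood at the 97.1 percentile of all regions and the second at the 11.2 percentile. A sum over the 2 regions would restate the first of them, which held most of the reads.

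The duplicate sox9b (ENSDARG00000043923, chromosome 3) had 6 of 8 regions above 0, with log2 ratios from −0.64 to 0.56. Their sum was 1220 in the mutant and 1088 in WT, a log2 ratio of 0.17 (0.05 to 0.29), and without the region with the most reads it was 875 in the mutant and 822 in WT (0.09, −0.05 to 0.23). Its promoter regions at 62348093 to 62348508 and 62348983 to 62349561 had 154 and 216 normalised reads in the mutant embryo, against 128 and 207 in WT, with log2 ratios of 0.26 (−0.07 to 0.62) and 0.06 (−0.22 to 0.35). The difference between the duplicates was not tested.

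Distal sox9b regions went both ways. At 24.0 kb upstream, 62372187 to 62372679 had 345 normalised reads in the mutant embryo and 266 in WT (0.37, 0.14 to 0.61), the only sox9b region with an interval above 0. At 16.6 kb downstream, 62331675 to 62332097 held 69 in the mutant and 96 in WT (−0.47, −0.94 to −0.01), while its neighbour at 17.4 kb had 58 in the mutant and 39 in WT (0.56, −0.06 to 1.16). These 2 adjacent regions thus had opposite signs. The remaining regions, 19.9 kb and 14.1 kb upstream and 37.0 kb downstream, held 255, 24 and 99 in the mutant, against 241, 38 and 73 in WT. Their log2 ratios were 0.08, −0.64 and 0.43, each with an interval that included 0.

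sox10 (ENSDARG00000077467, chromosome 3) was close to equal at its start. The region over the TSS, 2012970 to 2013225, had 230 normalised reads in the mutant embryo and 229 in WT (0.01, −0.26 to 0.28), and the 1 located 1.09 kb upstream held 173 in the mutant and 162 in WT (0.09, −0.23 to 0.40). Per length, the region over the TSS had 900 normalised reads per kb, second among the members only to the tfap2c region. The intragenic region at 2015521 to 2015886, 2.65 kb from the TSS, was higher, with 136 in the mutant and 100 in WT (0.44, 0.06 to 0.82).

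Farther out, sox10 regions 35.0 kb upstream, 12.8 kb downstream and 34.1 kb downstream had 38, 77 and 40 normalised reads in the mutant embryo, against 62, 88 and 23 in WT. Their log2 ratios were −0.69 (−1.32 to −0.09), −0.19 (−0.67 to 0.26) and 0.77 (0.07 to 1.65). The outermost regions on either side therefore differed in opposite directions. Over all 6 regions sox10 held 694 in the mutant and 664 in WT (0.06, −0.09 to 0.22).

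The Snail genes encode zinc finger repressors of epithelial cadherins, and in zebrafish snai1a is expressed in mesoderm as well. snai1b (ENSDARG00000046019, chromosome 23) had 6 of 10 regions below 0, of which 4 had intervals below 0 and none of its 10 had an interval above it. All 10 lay beyond 1 kb of the TSS. Of all such regions 41.6% lay above 0, and 22.8% had an interval below 0 and 15.6% above it. All 3 upstream snai1b regions were lower in the mutant library. Those 10.9 kb, 7.03 kb and 2.30 kb from the TSS had 91, 99 and 163 normalised reads in the mutant embryo, against 114, 150 and 220 in WT, with log2 ratios of −0.32 (−0.75 to 0.08), −0.59 (−0.99 to −0.22) and −0.43 (−0.73 to −0.13). Nearest to the TSS was the last, at 2576064 to 2576457, which is the 1 region that the table assigned to the gene. The region 10.9 kb upstream lies 12.9 kb from the nearest other TSS.

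Downstream of the snai1b TSS the values were mixed. At 8.08 kb, 2565707 to 2566067 had 35 normalised reads in the mutant embryo and 68 in WT (−0.94, −1.58 to −0.33), the lowest log2 ratio of the 46 members. At 31.3 kb, 2542553 to 2542762 held 84 in the mutant and 135 in WT (−0.68, −1.10 to −0.28). The remaining regions, 19.1, 29.2, 35.5, 38.0 and 45.6 kb away, had log2 ratios of 0.25, 0.22, −0.20, 0.14 and 0.11, each with an interval that included 0. The last of these was the most accessible snai1b region, with 507 normalised reads in the mutant embryo and 470 in WT. It lies almost as close to the tcp1 TSS, 46.2 kb away. The snai1b sum was 1597 in the mutant and 1785 in WT (−0.16, −0.26 to −0.06). Without that region, which had the most reads, the sum was 1090 in the mutant and 1315 in WT (−0.27, −0.39 to −0.15).

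snai1a (ENSDARG00000056995, chromosome 11) had 1 region, 2.36 kb upstream at 25022206 to 25022464, with 86 normalised reads in the mutant embryo and 100 in WT (−0.22, −0.65 to 0.21). It lies in the body of tp53inp2, whose TSS is 2.93 kb away. snai2 (ENSDARG00000040046, chromosome 24), the Slug gene, had a region over its TSS at 35500787 to 35501220 with 412 in the mutant and 362 in WT (0.19, −0.02 to 0.39). A region 45.8 kb downstream held 89 in the mutant and 126 in WT (−0.50, −0.90 to −0.09). These 2 snai2 regions lay on opposite sides of 0, and the sum over all 5 was 698 in the mutant and 613 in WT (0.19, 0.03 to 0.35). Without the region nearly absent from WT, 17.9 kb upstream, the sum was 635 in the mutant and 608 in WT (0.06, −0.10 to 0.23).

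Twist genes encode bHLH factors that act in crest of the head and in mesoderm. At twist1a (ENSDARG00000030402, chromosome 19) the promoter at 2398848 to 2399560 had 272 normalised reads in the mutant embryo and 235 in WT (0.21, −0.05 to 0.47). A region 14.8 kb downstream, 2384484 to 2384771, held 99 in the mutant and 55 in WT (0.84, 0.35 to 1.33), and that 21.4 kb downstream held 60 in the mutant and 44 in WT (0.44, −0.15 to 1.03). The region 1.29 kb upstream went the other way, with 80 in the mutant and 98 in WT (−0.29, −0.74 to 0.15), and the twist1a sum was 511 in the mutant and 432 in WT (0.24, 0.05 to 0.43). Without the promoter, its deepest region, the sum was 239 in the mutant and 197 in WT, with a log2 ratio of 0.28 and an interval that reached 0. twist1b (ENSDARG00000076010, chromosome 16) had its 1 region at the promoter, 19926710 to 19927347, with 149 in the mutant and 118 in WT (0.33, −0.02 to 0.69). Both twist promoters were thus slightly above 0 with intervals that included it.

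The spread of the members followed their depth. The 15 regions with a mean of at least 150 normalised reads had an interquartile range of 0.23 in log2 ratio, against 0.38 for the 10845 regions in range of a gene at that level. The 25 regions with a mean of 50 to 150 had 0.76, against 0.64. Of these 25, 15 lay below 0 and the median was −0.22, against −0.02 for the 11596 regions in range at that level. The interval lay above 0 for 2 of the 25 and below it for 9, against 1940 and 1985 of the 11596. At a mean of at least 150, 11 of the 15 lay above 0, against 58.5% of regions in range. The interval lay above 0 for 2 of those 15 and below it for 2, against 3102 and 1706 of the 10845. The 6 regions with a mean under 50 included both regions past 2-fold. Of these 6, 5 lay above 0, against 44.5% of regions in range at that level. Of the 6397 regions in range at that level, 560 were at least 2-fold higher and 639 at least 2-fold lower. Quartiles of the 6 members were 0.61 and 2.77, against −0.58 and 0.47 for those 6397. The interval lay above 0 for 4 of the 6 and below it for 0, against 975 and 1175 of the 6397. The part of low depth in the differences past 2-fold was not tested.

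**Figure D3:**
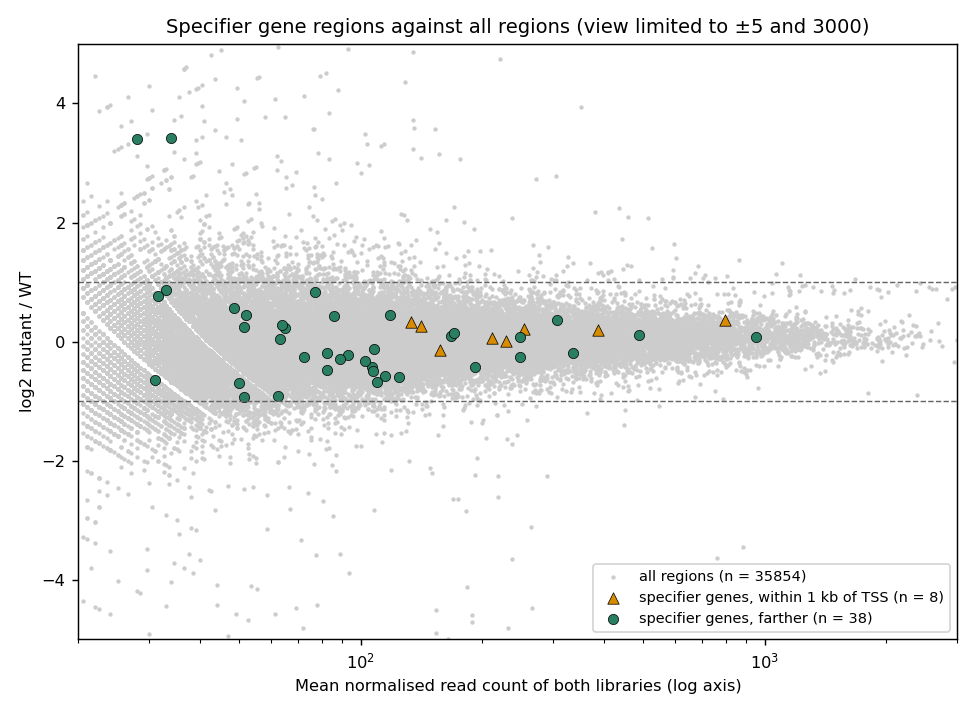
Log2 ratio of mutant over WT against the mean normalised read count of both libraries (log axis) for all 35854 regions (grey), specifier regions within 1 kb of the TSS (triangles, 8) and farther ones (circles, 38); dashed lines mark 2-fold, and the view leaves out regions beyond ±5 or above 3000. The members narrow toward 0 with rising level as the grey cloud does, and 2 of them lie above the upper line.

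Other genes of the neural crest pathway were read from 3 lists by the same rule, 213 regions at 46 genes in all. Of these, 71 lay above 0 and 140 below, with a median log2 ratio of −0.16, while 0 were at least 2-fold higher and 7 at least 2-fold lower. Intervals lay above 0 for 9.39% and below 0 for 29.1%. By list, intervals below 0 numbered 31 of 70 at other specifiers, 19 of 93 at plate border genes and 12 of 50 at later genes. The 7 regions at least 2-fold lower are 3.29% of the lists, against 3.43% of regions in range of a gene and 5.42% of those beyond 1 kb. With assigned regions only, which are fewer, the median was −0.04 and 1 region was at least 2-fold lower. Only 45 of the 213 lay within 1 kb of a TSS, so regions farther away, with the shares of 15.6% and 22.8% given earlier, are the nearer background. Over all 46 regions the 10 specifier genes, with intervals above 0 for 17.4% and below 0 for 23.9%, lay nearer to that background. This depended on low regions, since 4 of their 8 intervals above 0 were at regions with a mean under 50. With a minimum mean of 50, 4 of 40 specifier regions had an interval above 0 and 11 below it. Among all regions in range with a mean of 50 to 150, 1940 of 11596 had an interval above 0 and 1985 below it. At a mean of at least 150 these were 3102 and 1706 of 10845. Those 2 sets hold 4540 and 6816 regions within 1 kb of a TSS. The difference between the specifier genes and the other lists was not tested.

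Plate border genes, such as the pax3, pax7, msx and dlx genes, had 93 regions at 20 of 24 genes, with a median of −0.08. The interval lay above 0 for 11 of the 93 and below 0 for 19. Among all regions beyond 1 kb the shares were 15.6% and 22.8%. The highest with a mean of at least 50 lay 8.20 kb upstream of pax3b, which directs border fate, with 65 normalised reads in the mutant embryo and 38 in WT (0.76, 0.19 to 1.40). The 1 region past 2-fold, 32.9 kb upstream of the homeobox gene dlx4b, held 16 in the mutant and 37 in WT (−1.16, −2.16 to −0.30).

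Specifiers other than the 10 genes, among them foxd3, the id and myc genes and sox8a and sox8b, were the lowest list. Of 70 regions at 14 of 16 genes, 53 lay below 0, 31 (44.3%) had an interval below 0 and 5 above it, and the median was −0.26. Among all regions beyond 1 kb, 41.6% lay above 0, 22.8% had an interval below 0 and 15.6% above it, while 13 of the 70 lay within 1 kb. The 31 intervals were not spread evenly over the genes. Of them id1 held 10 and sox5 5, while foxd3 held 2 at its 5 regions. Past 2-fold lower were 4 of the 70 regions, against 3.43% of regions in range of a gene and 5.42% of those beyond 1 kb. Upstream of rxraa, a retinoid receptor gene, a region 23.9 kb away had 29 normalised reads in the mutant embryo and 101 in WT (−1.77, −2.48 to −1.20). Upstream of id1, an inhibitor of bHLH factors, regions 15.2 kb and 37.3 kb away held 30 and 19 in the mutant, against 64 and 49 in WT.

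Within that list id1 had 13 regions, of which 12 lay below 0 and 10 had an interval below it. Among all regions beyond 1 kb, 41.6% lay above 0 and 22.8% had an interval below 0. The id1 sum had a log2 ratio of −0.40 (−0.46 to −0.34), again with no share over all genes to set beside it. The fourth region past 2-fold lay 14.0 kb upstream of mycn, a proto-oncogene of proliferating progenitors, with 16 normalised reads in the mutant embryo and 43 in WT (−1.37, −2.38 to −0.57). The list's highest region with a mean of at least 50 lay within sox8a, a SoxE gene, with 80 in the mutant and 41 in WT (0.95, 0.40 to 1.52).

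Genes of later crest and its derivatives had 50 regions at 12 of 19 genes and a median of −0.19. The interval lay above 0 for 4 of the 50 and below 0 for 12. Among all regions beyond 1 kb the shares were 15.6% and 22.8%. The highest with a mean of at least 50 lay 15.9 kb downstream of ednrab, an endothelin receptor gene, with 198 normalised reads in the mutant embryo and 127 in WT (0.64, 0.32 to 0.97). Those past 2-fold lay 47.0 kb upstream of hand2, with 53 in the mutant and 125 in WT (−1.22, −1.73 to −0.75), and at the promoter of the cadherin gene cdh6, with 19 in the mutant and 48 in WT (−1.29, −2.18 to −0.52). hand2 also acts in lateral plate and cardiac mesoderm, and its regions cannot be ascribed to crest cells.

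**Figure D4:**
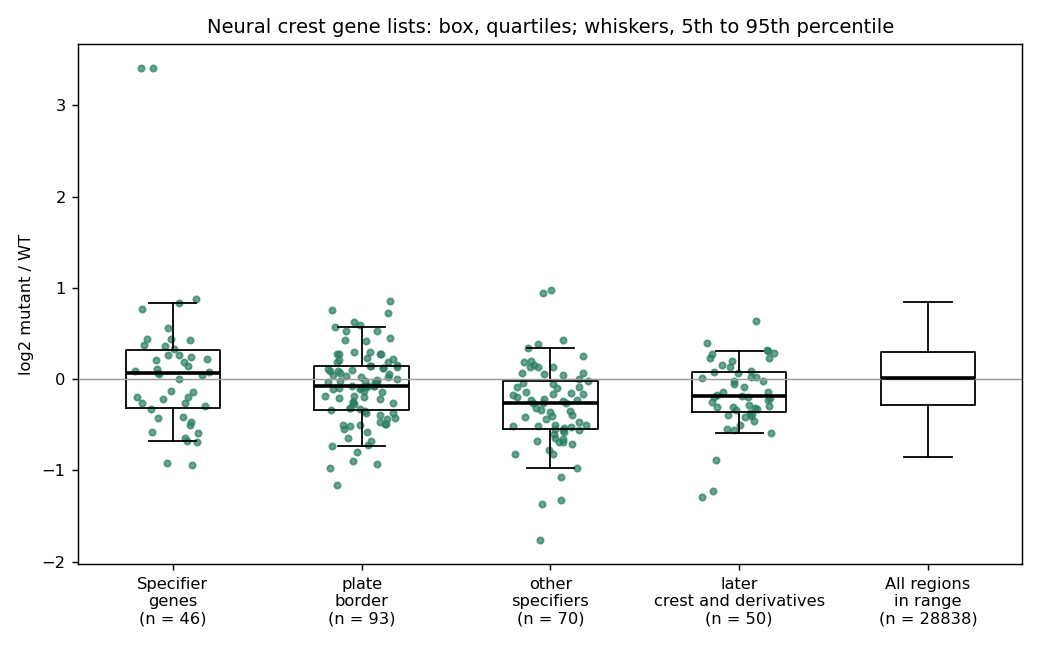
Log2 ratio of mutant over WT for the regions of the 10 specifier genes, of 3 further neural crest lists and of all regions in range of a gene; points are regions, boxes the quartiles, the thick line the median and whiskers the 5th to 95th percentile. The medians are 0.07 for the specifier genes, −0.08 for plate border genes, −0.26 for other specifiers, −0.19 for later genes and 0.02 for all regions in range.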

How the data were processed

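Both libraries were single-embryo ATAC-seq, 1 per genotype, grouped by the genotype in the labels. The library columns hold scores, read counts per region that the authors normalised and rounded to whole numbers, as the values show; per the submitters' processing notes the tools included STAR 2.5.3a, MACS2, Picard 2.9.0, Trimmomatic 0.36, DESeq2 1.14.1, DESeq and deepTools 2.5.4, on GRCz10 (danRer10), with no role given. Region merging and any shift of read ends are not described in those notes as given. The deposited log2 ratio is mutant over WT on values + 1. The deposited fraction of each region inside its gene, per the file headers, was used to place it.

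Mutant values equal whole reads times 1.065 after rounding for 99.96% of values up to 4000 (93.9% by chance), and the WT factor was taken as its reciprocal, 0.939. Reads were estimated by division and used for intervals only. A minimum mean of 20 removed 0 regions. Called means at least 2-fold. Named pathway regions were those past 2-fold and the highest and lowest per list with a mean of at least 50. One region that this rule names is not reported here. No genes of similar pattern are named, since 2 libraries give no measure of likeness. The members, lists and alternatives were chosen with earlier results of these data known. The procedure was tested on simulated data with counting error only, in which the WT factor was the reciprocal by construction. That simulation could not check the reciprocal factor, PCR copies or differences between embryos. Scripts ran in Python 3.11.15 with scipy 1.17.1, pandas 2.3.3, matplotlib 3.10.9 and numpy 2.4.6.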

Additional observations from a re-analysis of the deposited data

How the results depend on the processing

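No paired analysis was possible because each genotype has 1 library. Of 184 log2 ratios of single specifier regions recomputed under 4 settings (a pseudocount of 10 and 3 other scalings), 182 stayed inside their counting interval. The 3 scalings move log2 ratios by only −0.07 to 0.16, which is small against these intervals. For the scalings this count was therefore nearly fixed beforehand and does not measure robustness. Sign changed for 1 region when scaled to the same total, 2 after centring by level and 4 when scaled on the 10% of regions with the highest mean, and for 0 with a pseudocount of 10, each time at a region whose interval included 0. The 2 values outside their interval, both with a pseudocount of 10, were the tfap2c region 48.3 kb downstream at 2.15 and the snai2 region 17.9 kb upstream at 2.28. Because the interval holds no pseudocount, these values and their intervals are unlike measures. The specifier median ranged from −0.01, scaled on the 10% of regions with the highest mean, to 0.15 with 1 region per gene. That scaling, which shifts all regions by −0.07, gave 1 specifier region at least 2-fold lower.

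The specifier count at least 2-fold higher was 1 with unassigned regions within 20 kb only, and 0 with a minimum mean of 50, with assigned regions only and with 1 region per gene. These settings also gave fewer regions to count, namely 30, 40, 15 and 10 of the 46, in that order. Intervals above 0 numbered 4, 4, 2 and 2 with regions within 20 kb, a minimum mean of 50, assigned regions and 1 region per gene. Intervals below 0 numbered 6, 11, 3 and 1 with regions within 20 kb, a minimum mean of 50, assigned regions and 1 region per gene. For the other pathway genes, 2 regions were at least 2-fold higher after centring by level, and 13 had an interval above 0 when scaled on the highest 10%. With assigned regions only they had 1 region at least 2-fold lower, 13 intervals above 0, 19 below 0 and a median of −0.04. That setting also counts fewer regions, and no share over all assigned regions is set beside these counts. Low regions have wide counting intervals. The sums with a region left out were chosen after seeing the data.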

Other observations

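The SoxE genes, grouped after their values were seen, are sox8a, sox8b, sox9a, sox9b and sox10. Their 19 regions had 15 above 0, 7 with an interval above 0 and 2 below it, and a median log2 ratio of 0.26. Of all regions in range of a gene, 51.2% lay above 0, with an interval above 0 for 20.9% and below it for 16.9%. Scaled on the 10% of regions with the highest mean, 13 of 19 lay above 0 and the median was 0.19. All 7 of their regions within 1 kb of a TSS lay above 0 as deposited, as did 62.9% of all promoter regions, with sox10 at 0.01 and 1 sox8a region at 0.95. The sox8b promoter had 265 normalised reads in the mutant embryo and 196 in WT (0.43, 0.16 to 0.71), and a second sox8a region held 39 in the mutant and 34 in WT (0.19, −0.48 to 0.92). In the list of other specifiers, mycb and rxraa, singled out after their values were seen, each had 6 of 6 regions below 0, with medians of −0.42 and −0.63. Among all genes with 6 regions, 9.05% had every region below 0.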
